A study of Mus musculus with 14 samples.

Results

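Replication-dependent histone genes were followed in RNA-seq libraries of whole caudal intervertebral discs from mouse models of type 2 diabetes. The set was defined by name alone, as every protein-coding gene whose symbol begins with a histone cluster prefix (Hist1h to Hist4h, H1f, H2ac, H2bc, H3c or H4c). It held 68 of the 55487 genes in the table, and 4 further genes with such names were pseudogenes and were left out. By class there were 10 H1 genes, 17 H2A genes, 17 H2B genes, 12 H3 genes and 12 H4 genes. Of the H1 genes, 4 were set apart as not replication-dependent (H1f0, H1f7, H1f8 and H1f10, which encode replacement, germ-line or constitutive linker histones). The other 64 of the 68 were counted here as replication-dependent by name, without a check of each gene. The genes lie in the known clusters, 54 of them on chromosome 13 and 10 on chromosome 3, and 62 have a single exon in every annotated transcript (GENCODE M21, GRCm38).

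Each library came from 1 male mouse, with the 5 discs between CC7/8 and CC11/12 pooled. In the first model, 3 db/db mice, which carry a mutated leptin receptor (Lepr, a single base changed) on both alleles, were set against 3 db/+ littermates with 1 mutated allele, all at 12 weeks of age. In the second model, 4 STZ-HFD mice on a C57BL/6 background, 12 weeks old at the start, ate a high-fat diet for 4 to 6 weeks, received 1 dose of 100 mg/kg streptozotocin (a toxin of the insulin-producing beta cells) and stayed on the diet for 12 more weeks, while 4 Con+Veh mice had chow and citrate buffer. The diet is given as 80% fat by calories in the sample descriptions and as 60% in the study's methods. The mutation in db/db mice acts in every cell that uses the receptor, and streptozotocin with diet acts on the whole animal, so neither group isolates an effect on disc cells.

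Histone mRNAs of this kind are the main class of mRNA without a poly(A) tail. They end in a short stem-loop that is bound by the stem-loop binding protein and cut by a dedicated machinery, and they are normally made in S phase, when new DNA has to be packed into nucleosomes of 2 each of H2A, H2B, H3 and H4, with H1 on the linker DNA. Several of the genes can also yield polyadenylated mRNA from a downstream site in cells that have stopped dividing, and most cells of the adult disc divide rarely. The libraries were made from total RNA by random-primed amplification, and no poly(A) selection is described, so both kinds of transcript could be captured.

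The stem-loop was present in the annotated transcripts of 43 of the 68 genes, against 27 of 21749 other protein-coding genes (0.124%). It is shown here for some of the genes followed below, of which H2ac20 was too low for the test. The 16 bases of the stem-loop are in capitals, with up to 5 flanking bases on each side.
H1f2: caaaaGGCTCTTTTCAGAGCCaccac
H2ac6: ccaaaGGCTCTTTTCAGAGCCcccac
H2ac20: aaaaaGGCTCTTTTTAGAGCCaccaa
H2bc3: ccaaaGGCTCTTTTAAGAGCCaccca
H3c6: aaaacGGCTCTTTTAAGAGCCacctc
H3c7: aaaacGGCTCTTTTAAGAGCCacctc
H4c3: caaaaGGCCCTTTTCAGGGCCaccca
H4c4: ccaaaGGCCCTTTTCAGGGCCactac
H4c6: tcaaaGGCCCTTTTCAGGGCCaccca
H4c14: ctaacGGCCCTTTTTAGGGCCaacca
The 43 genes held 8 distinct stem-loops. The form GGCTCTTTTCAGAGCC was found in 24 of them, from the H1, H2A, H2B and H3 classes, while 6 H4 genes carried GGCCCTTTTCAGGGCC. No match was found in the annotated transcripts of H2bc4 or H2bc21, which says only that these transcripts, as annotated, do not hold it. How far the annotation ran past the stem-loop differed widely among the 16 tested genes that have one, from 23 bases in H2bc3 to 4884 bases in H1f3. In 11 of them it ran on for more than 300 bases, as in H1f2 with 840 bases, H4c3 with 454 bases, H4c4 with 770 bases, H4c14 with 1257 bases and H2ac6 with 2010 bases, so reads from an extended, polyadenylated form would be counted for these genes as well.

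The promoters were compared by short motifs in the 250 bases before the start (RefSeq, GRCm38.p6, both strands, no motif contained in another). Promoters of 55 of the 68 genes were found, 56 promoters in all. The CCAAT box was present in 80.4% of them against 33.9% of 32851 promoters, and the TATA box, TATAAA, in 42.9% against 12.4%. The octamer ATTTGCAT, the Oct-1 element of H2B promoters, was present in 6 of 14 H2A and 7 of 13 H2B promoters and in none of the H1, H3 or H4 promoters, against 1.60% of all. AAACACA, a motif of H1 promoters, was present in 5 of 10 H1 promoters against 6.25% of all. The 150 bases before the start are given for 3 genes that are followed below, with the motifs in capitals, in the direction of transcription.
H1f2, chr13:23738657-23738806, plus strand: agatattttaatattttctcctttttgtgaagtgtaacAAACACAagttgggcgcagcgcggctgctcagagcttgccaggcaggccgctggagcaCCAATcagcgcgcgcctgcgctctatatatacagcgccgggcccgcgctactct
H2ac6, chr13:23683960-23684109, minus strand: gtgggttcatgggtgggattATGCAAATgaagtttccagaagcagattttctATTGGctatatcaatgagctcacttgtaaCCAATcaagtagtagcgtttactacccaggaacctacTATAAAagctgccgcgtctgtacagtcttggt
H4c3, chr13:23698459-23698608, minus strand: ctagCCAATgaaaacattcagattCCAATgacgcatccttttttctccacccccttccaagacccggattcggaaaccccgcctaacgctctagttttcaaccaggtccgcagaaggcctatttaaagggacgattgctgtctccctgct
H1f2 and H2ac6 thus showed the class motifs beside CCAAT, and H4c3 showed CCAAT only.

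Histone genes took a small part of each library. The libraries held 16076908 to 58943169 counts, of which 28.1% to 60.2% fell on ribosomal RNA genes, and between 0.0176% and 0.0455% of all counts fell on the 68 genes, 172559 counts over the 14 libraries. A count of 3 corresponded to 0.0431 to 0.163 CPM (counts scaled to TMM-adjusted library size, the unit of levels unless another is named), and these limits cover counting error only. At least 1 count was found for 60 genes, and 44 genes had counts in every library of a group. The other 24 had at most 54 counts over all libraries. Of the 44 genes, 20 passed the filter of more than 1 CPM in at least 3 libraries and were tested, among them H1f0 and H1f10, so 18 tested genes were replication-dependent. Disc and cartilage genes such as Acan, Col2a1, Sox9 and Comp were abundant, and so were skeletal muscle genes such as Acta1 and Myh1. Since the libraries were bulk samples, fewer cells of a type and less RNA per cell cannot be told apart.

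Counts were concentrated in 7 genes, which together held 87.8% of all histone counts: H1f2, H1f0 and H1f4 among the linker histones, H4c4, H4c14 and H4c3, and the H2B gene H2bc4. Per kilobase of exon the mean level was 39.9 CPM for H1f2, 27.4 for H4c3, 27.1 for H1f0, 23.2 for H4c4, 21.8 for H1f4, 20.3 for H4c8, 18.5 for H2bc4 and 14.2 for H4c14. Next came H4c6 with 7.62 and H4c1 with 3.79 CPM per kilobase, and every other tested gene was below 2 CPM per kilobase. The levels of H1f4 and H2bc6 are uncertain, because the annotated H2bc6 gene runs across H1f4 on the same strand, and H1f0 and H1f10 overlap antisense genes while the strand setting of the counting is not stated in the sources used here.

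The gene counts were unevenly divided among the classes, as shares of counts that are not scaled to length. H1 genes held 57.9% of the histone counts, H4 genes 29.4%, H2B genes 10%, H3 genes 1.92% and H2A genes 0.842%. Transcript estimates deposited for the same libraries gave another picture, with 41.6% on H1, 24% on H4, 22.3% on H2A, 9.42% on H2B and 2.66% on H3. H2A was thus the class that differed most between the 2 tables, with 1453 gene counts and 16960 estimated transcript counts, although the transcript tables were the smaller ones, with 76098 against 172559 histone counts.

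2 measured features of the genes went with low gene counts. The first was shared sequence: the median H2A gene had 77.6% of its 75-base stretches in common with a transcript of another gene, against 0.735% for H1, 47.4% for H2B, 59% for H3 and 30.0% for H4. All 8 genes with no count at all shared more than 50% of their stretches, and the 24 genes that were not reported had a median of 81.1%, against 20.7% among the tested genes. The second was overlap: all 17 H2A genes overlap a gene annotated on the other strand, against 5 of the other 51 genes. The 2 features are partly the same, because stretches were matched on both strands and overlapping genes were not set aside. For H2ac18, the gene sharing most stretches was Gm20633, which overlaps it on the other strand. How reads with several possible origins were treated is not stated in the sources used here, and the part of either feature in the low counts was not tested.

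Among H2A genes, H2ac18 and H2ac19 differed most between the tables. Each had 100% of its stretches in transcripts of other genes. Both had 0 gene counts in every library, and together they had 11889 estimated transcript counts, 70.1% of the H2A estimates. In 11 of the 14 libraries the whole estimate was placed on 1 of the 2 genes, so only their sum can be read. Scaled to the library total of estimated counts (estimated CPM), the sum was 258, 210 and 140 in db/+, 95.0, 88.7 and 107 in db/db, 139, 116, 248 and 156 in Con+Veh, and 84.7, 205, 101.04 and 132 in STZ-HFD. The db/db values were all below the db/+ values, and the STZ-HFD and Con+Veh values overlapped. The sum was not tested, and 11.7% of all tested genes lay apart and lower in the gene counts of db/db. Genes with a high shared percentage, including H3c6 (59.4%), H3c15 (62.6%) and H3c2 (58.6%), are reported with that uncertainty.

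**Figure D1:**
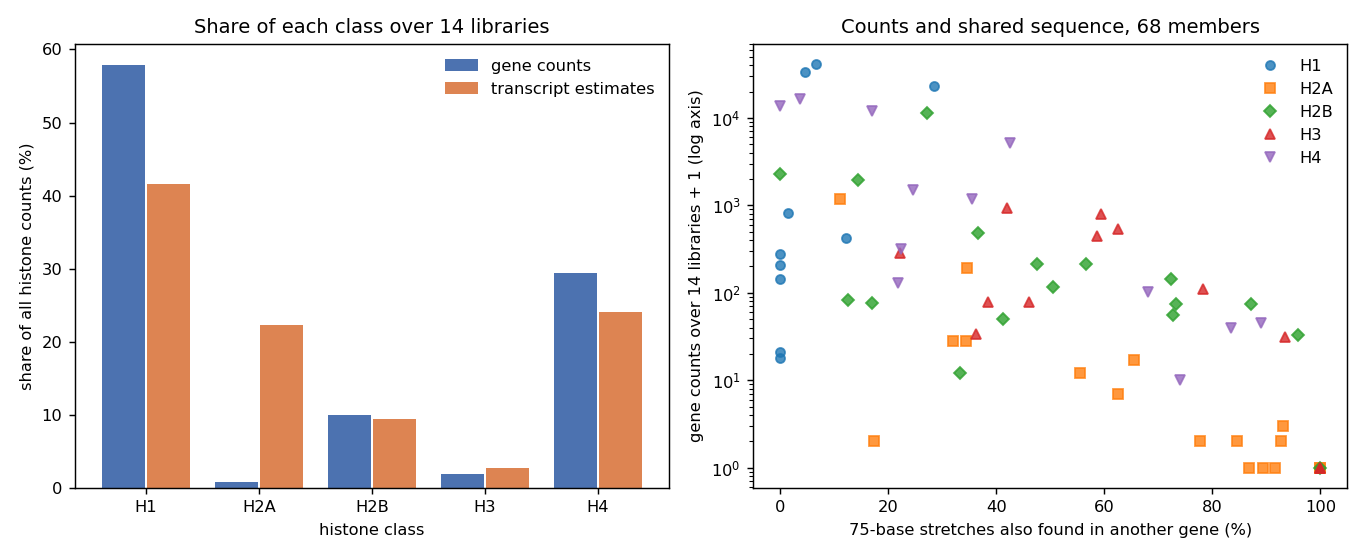
Left, share of all histone counts (%) held by each histone class in the gene counts and in the transcript estimates, over 14 libraries; right, gene counts over 14 libraries plus 1 (log axis) against the percentage of 75-base stretches that another gene also holds, for the 68 genes. H2A holds 0.842% of the gene counts and 22.3% of the transcript estimates, and genes that share 100% of their stretches sit at 0 counts.

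By class, no sum of counts separated both diabetic groups from their controls. Summed H1 levels were 266, 142 and 124 CPM in db/+, 163, 121 and 212 in db/db, 172, 137, 131 and 150 in Con+Veh, and 152, 212, 171 and 137 in STZ-HFD. These groups overlapped in both models. For H4 the sums were 118, 60.7 and 54.0 CPM in db/+, 94.4, 60.4 and 99.1 in db/db, 73.4, 85.2, 147 and 154 in Con+Veh, and 20.4, 103, 94.5 and 62.8 in STZ-HFD. The H4 groups overlapped too, with Con+Veh replicates 3 and 4 the highest of all libraries and STZ-HFD replicate 1 the lowest.

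Summed H3 levels were 12.3, 5.86 and 4.29 CPM in db/+ and 2.82, 3.72 and 4.26 in db/db. The lowest db/+ library thus lay barely above the highest db/db library on the TMM scale. The groups overlapped per total counts (lowest db/+ 5.84, highest db/db 5.97 CPM) and per counts outside ribosomal RNA (8.21 and 8.30 CPM). In the other model H3 sums were 7.63, 5.69, 8.46 and 5.38 CPM in Con+Veh and 3.45, 5.43, 5.84 and 3.92 in STZ-HFD, and the groups overlapped. H2B sums ranged from 19.1 to 33.4 CPM in db/+, from 17.5 to 25.8 in db/db, from 31.4 to 43.6 in Con+Veh and from 29.0 to 38.9 in STZ-HFD. H2A sums, which rest on 18 to 208 counts per library, ranged from 0.978 to 4.32 CPM over all libraries. In the transcript estimates the H2A sums were 398, 273 and 213 estimated CPM in db/+ and 158, 135 and 149 in db/db. Those 2 groups did not overlap, whereas Con+Veh (161 to 354) and STZ-HFD (95.4 to 260) did. These sums were not tested, and 11.7% of all tested genes lay apart and lower in the gene counts of db/db.

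**Figure D2:**
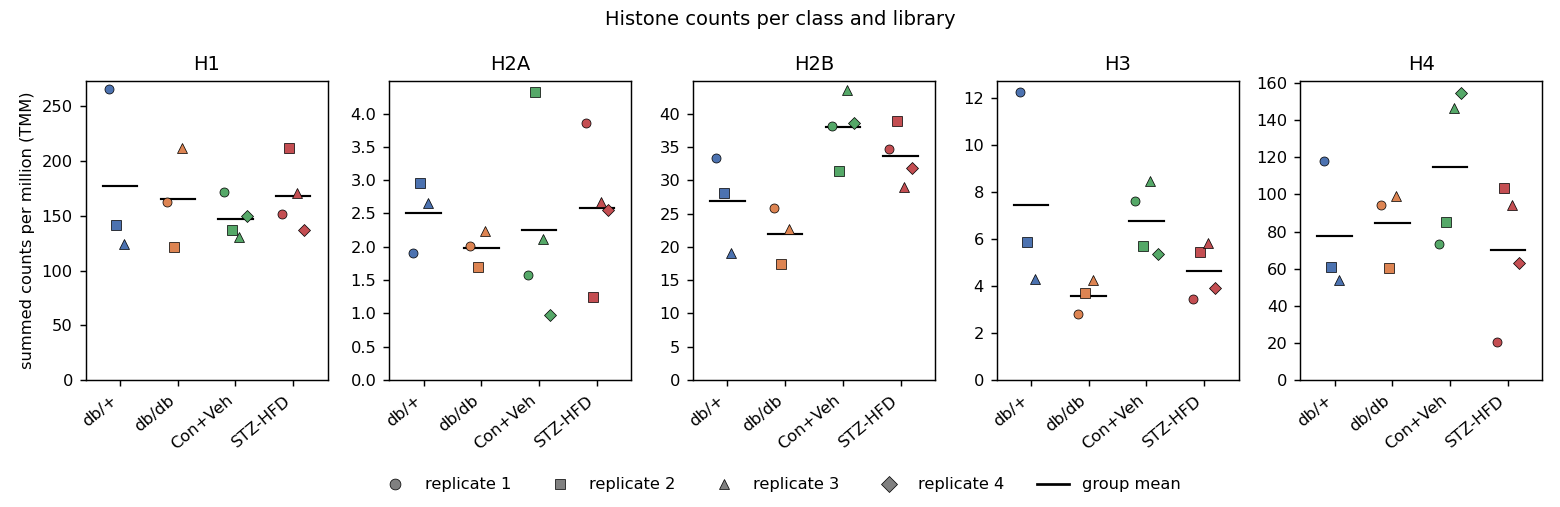
Summed CPM of each histone class (vertical axes, TMM-scaled, a different scale in each panel) in the 14 libraries by group, with 1 symbol per replicate and a line at the group mean. db/+ replicate 1 is highest of its group for H1, H2B, H3 and H4, and STZ-HFD replicate 1 is lowest for H4 at 20.4 CPM.

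In discs of db/db mice, no histone gene passed the test against db/+. The call needed an adjusted p under 0.05 and a log2 fold change of at least 1 in size, in limma with sample quality weights and Benjamini-Hochberg adjustment over 16915 genes. Of the 20 tested histone genes, 0 were called higher, against 1.23% of all genes, and 0 were called lower, against 0.432%. At an unadjusted p under 0.05 there were 4 of 20, while 21.1% of all genes reached that level. DESeq2 called 0 of the 20, against 1.25% of all genes, and edgeR called 0 of all 16915 genes, so its 0 says nothing about histone genes. The median log2 fold change of the 20 genes was -0.32, beside -0.04 over all genes, with 12 below and 8 above 0.

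Direction differed among members. H1f2, which encodes the linker histone H1.2, was at 76.3, 52.4 and 48.1 CPM in db/+ and at 77.4, 70.0 and 131 CPM in db/db. The groups overlapped, since db/+ replicate 1 lay above db/db replicate 2, and the log2 fold change was 0.62 (SE 0.28, adjusted p = 0.209). The other leading linker histone, the replacement form H1f0, pointed the other way, with 108, 64.9 and 46.4 CPM in db/+ and 52.1, 33.0 and 53.6 in db/db. Its log2 fold change was -0.64 and its groups overlapped as well.

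The groups did not overlap for 3 genes: H2bc21 was higher in all db/db libraries (1 of 20, against 14.1% of all genes), and H2bc3 and H3c7 were lower in all of them (2 of 20, against 11.7%). These 3 stayed apart per total counts and per counts outside ribosomal RNA. H2bc21, an H2B gene of the chromosome 3 cluster and chosen for naming after its values were seen, had 1.35, 2.24 and 2.49 CPM in db/+ and 4.11, 4.18 and 6.74 in db/db. Its log2 fold change of 1.28 (SE 0.46, adjusted p = 0.130) did not pass the test. H2bc21 shares none of its 75-base stretches with another gene, while H2bc3 shares 36.6% and H3c7 42.0% of theirs.

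H2bc3 had 3.22, 1.22 and 0.824 CPM in db/+ and 0.409, 0.617 and 0.691 in db/db, which is 26 to 157 counts per library. H3c7 had 3.06, 2.16 and 1.52 CPM in db/+ and 0.724, 0.919 and 1.21 in db/db. Neither passed the test, with log2 fold changes of -1.34 (SE 0.60, adjusted p = 0.215) and -1.19 (SE 0.44, adjusted p = 0.137). H3c6, the gene that shares most 75-base stretches with H3c7, had 3.36, 1.83 and 0.684 CPM in db/+ and 0.724, 0.804 and 0.628 in db/db, and its groups overlapped.

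The H4 genes gave no such pattern in this model. H4c3 was at 25.6, 9.98 and 14.4 CPM in db/+ and at 19.8, 13.4 and 16.9 in db/db, so the db/db libraries lay within the span of the db/+ libraries. H4c4 was at 37.3, 21.5 and 14.9 CPM in db/+ and at 30.4, 21.3 and 47.0 in db/db. The median log2 fold change of the 6 tested H4 genes was 0.12, beside -1.17 for the 4 tested H3 genes. Of these 4, 3 were below 0, while H3c15 was above 0 with 0.94 (SE 0.72, adjusted p = 0.476), and its groups overlapped. Among the core H2A and H2B genes, H2ac6 had 1.17, 2.37 and 1.66 CPM in db/+ and 1.87, 1.56 and 1.87 in db/db, and H2bc4 had 20.9, 19 and 12.1 against 17.8, 8.48 and 11.8.

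H2ac20, next to H2ac6 among H2A genes in CPM per kilobase, was too low for the test. It had 29, 27 and 54 counts in db/+ and 6, 9 and 19 counts in db/db, and 0 to 13 counts in the 8 libraries of the other model. The transcript tables gave H2ac20 220, 104 and 180 estimated counts in db/+ and 144, 107 and 147 in db/db, which overlap. db/+ replicate 1 was the highest library of its group for 16 of the 20 tested genes, and the values above show it for H1f0, H2bc3, H3c6 and H4c3.

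**Figure D3:**
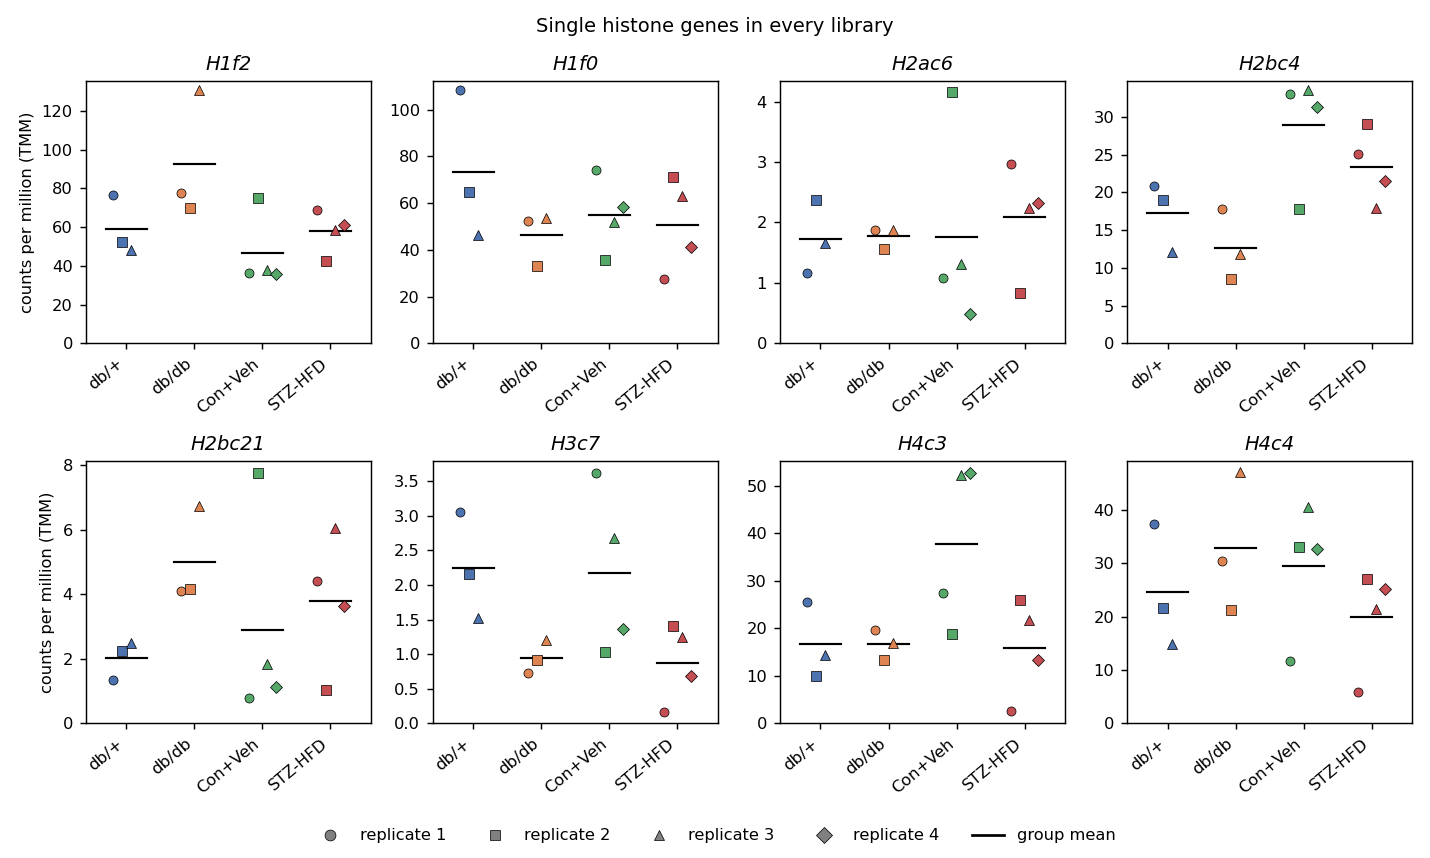
CPM (vertical axes, TMM-scaled) of 8 histone genes in the 14 libraries by group, with 1 symbol per replicate and a line at the group mean. H2bc21 and H3c7 do not overlap between db/+ and db/db, whereas H4c3 is near 52 CPM in Con+Veh replicates 3 and 4 and at 2.59 CPM in STZ-HFD replicate 1.

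In discs of STZ-HFD mice 1 histone gene, the H4 gene H4c3, was called, and it was lower than in Con+Veh (1 of 20, against 1.31% of all genes). None was called higher (0 of 20, against 1.30%). At an unadjusted p under 0.05 there were 6 of 20, against 17.9% of all genes: H4c3, H4c14, H4c6, H3c7 and H2bc4 on the low side and H1f2 on the high side. The median log2 fold change of the 20 genes was -0.54, beside -0.04 over all genes, with 13 below and 7 above 0. For no tested histone gene were the groups apart, either higher (0 of 20, against 1.97% of all genes) or lower (0 of 20, against 2.77%).

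H4c3 (also Hist1h4c, chr13:23697635-23698454, minus strand, 1 exon of 820 bases) was at 27.5, 18.8, 52.3 and 52.7 CPM in Con+Veh and at 2.59, 26.0, 21.7 and 13.5 CPM in STZ-HFD. Con+Veh replicates 3 and 4 lay far above every STZ-HFD library, replicate 1 lay just above the highest of them, and replicate 2 lay within their range. The lowest value, STZ-HFD replicate 1, rests on 63 counts, and the others rest on 453 to 1113. The log2 fold change was -1.58 (SE 0.40, adjusted p = 0.0372). Of its 75-base stretches, 16.9% are shared with other genes, above all H4c1.

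The call depended on particular libraries. The quality weights gave Con+Veh replicates 3 and 4 the values 3.05 and 1.81, and replicates 1 and 2 the values 0.275 and 0.462, so the control libraries with high H4c3 counted most. Without Con+Veh replicate 3 the log2 fold change was -1.30 and the adjusted p 0.435, and without replicate 4 they were -1.36 and 0.242. They were -1.89 and 0.167 without STZ-HFD replicate 3, and -1.45 and 0.166 without replicate 4. Calls over all genes fell as well, from 441 in this contrast to 17, 18, 18 and 164 in these 4 settings, so the loss was not particular to H4c3. Without STZ-HFD replicate 1, in contrast, the log2 fold change was -1.30 and the adjusted p 0.0382, so the library with the fewest H4c3 counts did not carry the call. With voom but no quality weights the adjusted p was 0.333, and with edgeR it was 0.323 and with DESeq2 0.179. H4c3 was lower in STZ-HFD in all 30 alternatives, and it was called in 13 of them.

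**Figure D4:**
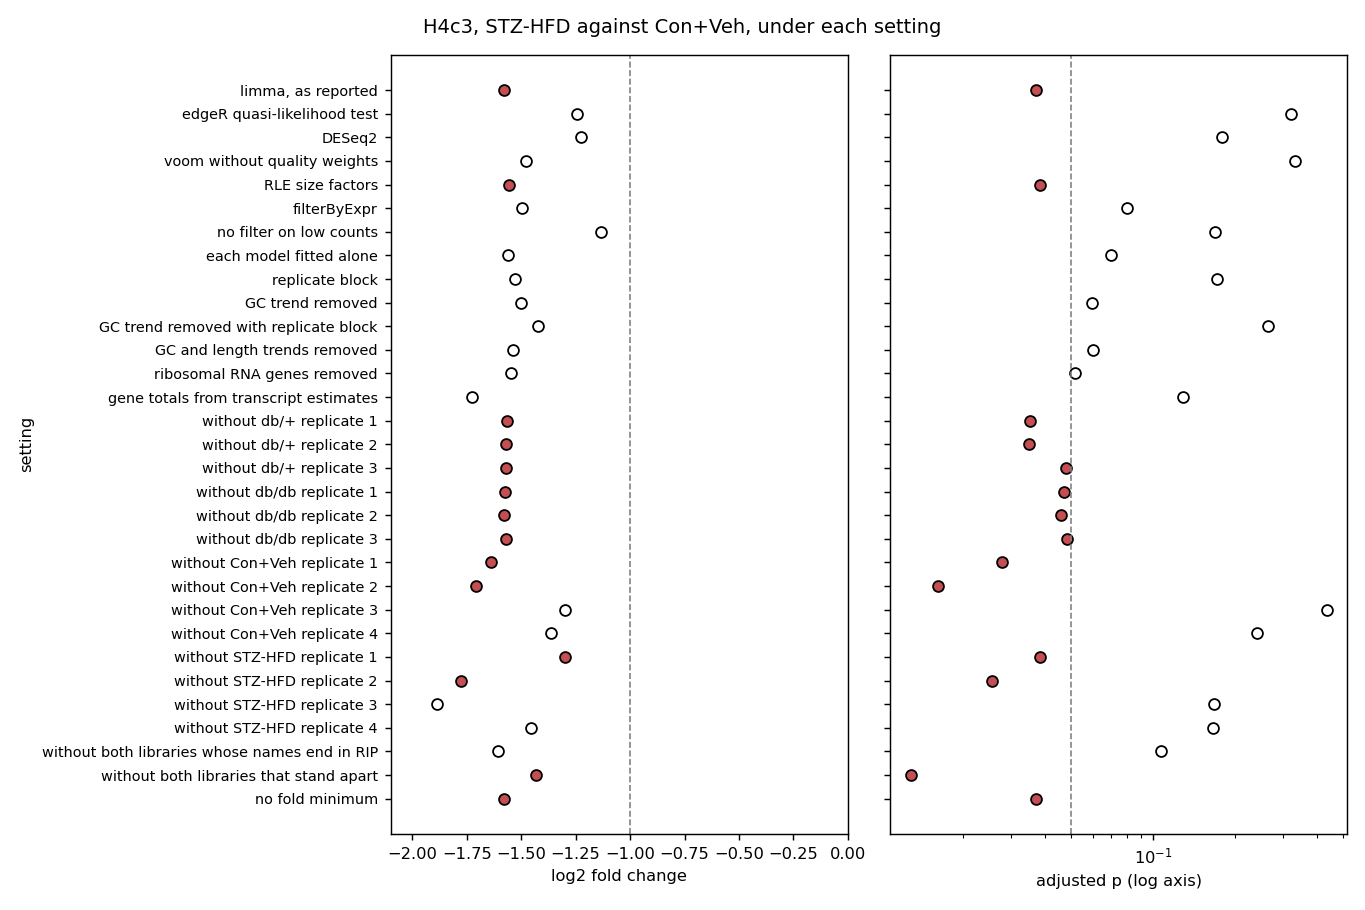
log2 fold change (left) and adjusted p (right, log axis) of H4c3 in STZ-HFD against Con+Veh for the reported setting and 30 alternatives, filled where the gene was called, with dashed lines at -1 and 0.05. All fold changes are below 0, between -1.89 and -1.13, while the adjusted p runs from 0.0128 to 0.435.

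Of the 6 tested H4 genes, 5 had a log2 fold change below 0 in STZ-HFD, with a median of -1.14. H4c4 was at 11.8, 33.1, 40.5 and 32.7 CPM in Con+Veh and at 5.96, 27.1, 21.4 and 25.1 in STZ-HFD, a log2 fold change of -0.72 that did not pass the test. Chosen after their values were seen, H4c14 was at 20.2, 17.7, 31.9 and 42.6 CPM in Con+Veh and 5.06, 25.9, 27.9 and 8.92 in STZ-HFD, and H4c6 was at 4.02, 2.45, 6.25 and 8.09 against 0.452, 5.36, 2.45 and 1.87. Their log2 fold changes were -1.06 (adjusted p = 0.142) and -1.39 (adjusted p = 0.145). The exception was H4c8 with 0.19. STZ-HFD replicate 1 was the lowest library of its group for each of the 6 H4 genes, down to 1 count of H4c1.

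The other classes did not share this pattern evenly. H1f2 was at 36.4, 75.2, 38 and 35.7 CPM in Con+Veh and at 68.8, 42.4, 58.5 and 61.2 in STZ-HFD. Its log2 fold change was 0.54 (SE 0.23, adjusted p = 0.228). Con+Veh replicate 2 stood apart from the other 3 control libraries here, and every STZ-HFD library lay above those 3. H1f0 was at 74.0, 35.5, 51.8 and 58.3 CPM in Con+Veh and at 27.5, 71.3, 63.0 and 41.0 in STZ-HFD, and its log2 fold change was -0.06.

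H2bc4, the leading H2B gene, was at 33.1, 17.8, 33.5 and 31.3 CPM in Con+Veh and at 25.1, 29.1, 18.0 and 21.6 in STZ-HFD. Again Con+Veh replicate 2 stood apart, this time as the lowest, and the log2 fold change was -0.53 (SE 0.25, adjusted p = 0.275). H2bc3 had 2 to 24 counts in these 8 libraries and its groups overlapped. H2bc21 was at 0.788, 7.77, 1.83 and 1.14 CPM in Con+Veh and at 4.40, 1.03, 6.06 and 3.63 in STZ-HFD, and H2ac6 was at 1.09, 4.16, 1.32 and 0.489 against 2.96, 0.825, 2.24 and 2.32. In both genes Con+Veh replicate 2 was the highest and STZ-HFD replicate 2 the lowest of its group.

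H3c7 was at 3.61, 1.04, 2.68 and 1.36 CPM in Con+Veh and at 0.164, 1.41, 1.24 and 0.685 in STZ-HFD, and H3c6 was at 1.09, 1.45, 2.30 and 2.28 against 0.164, 1.86, 1.12 and 1.25. The value of 0.164 CPM is 4 counts in both genes. Their log2 fold changes were -1.18 (SE 0.56, adjusted p = 0.276) and -0.87, and the groups overlapped in both.

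When the contrasts of the 2 models were set against each other, 0 of the 20 histone genes differed, against 1.77% of all genes called, and 3 of 20 had an unadjusted p under 0.05, against 17.3% of all genes. Those 3, H4c3, H4c4 and H4c6, are all H4 genes. For H4c3 the contrast was higher in the db/db model by 1.70 on the log2 scale (SE 0.60, adjusted p = 0.147), so the fall in STZ-HFD was not shown to be particular to that model. DESeq2 called 0 of the 20, against 1.5% of all genes, and edgeR called 5 of all 16915 genes, none of them among the 20.

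**Figure D5:**
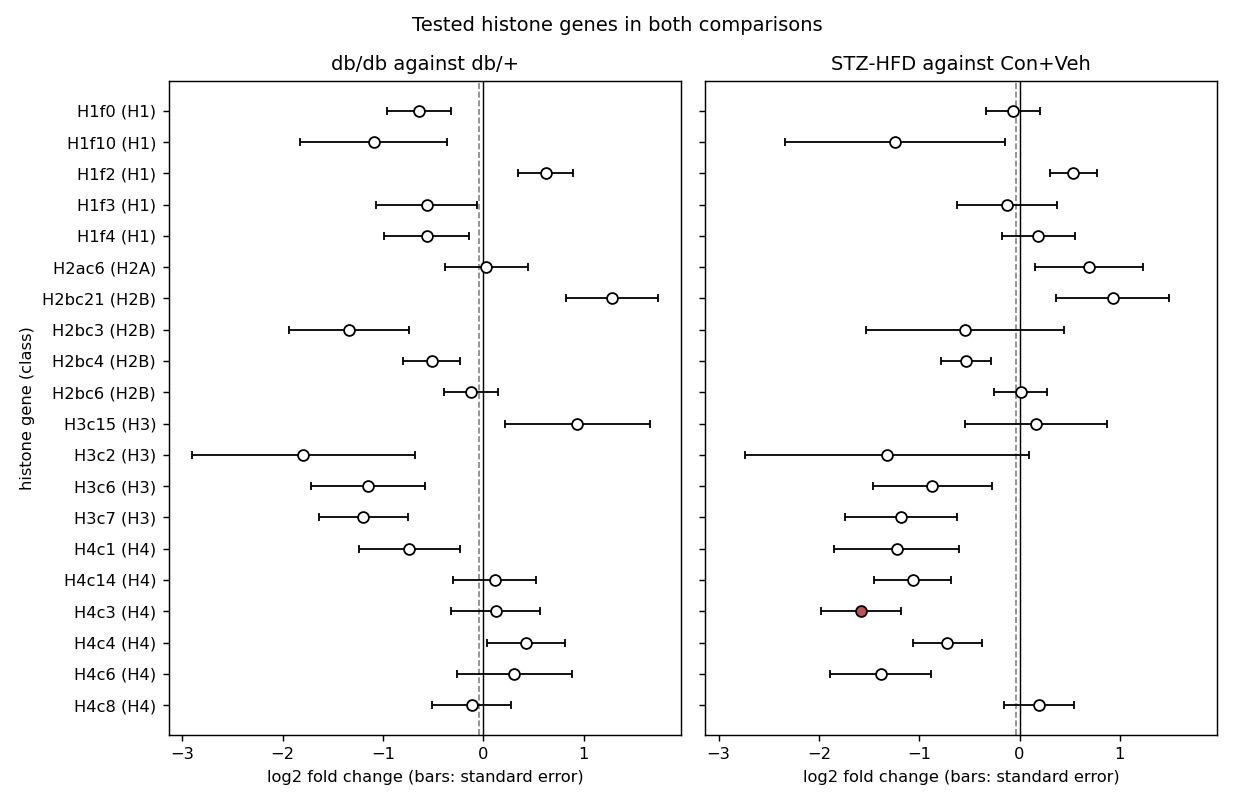
log2 fold change with its standard error (horizontal axes) of the 20 tested histone genes, ordered by class, in db/db against db/+ (left) and STZ-HFD against Con+Veh (right); the filled point is the called gene and the dashed line the median of all genes. H4c3 at -1.58 is the only called gene, H2bc21 and H1f2 lie above 0 in both panels, and H3c7 and H2bc4 lie below 0 in both.

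The 24 genes with counts in every library of a group that were not tested had 27 to 319 counts each over the 14 libraries, a mean of at most 0.547 CPM. They were 3 H1, 2 H2A, 9 H2B, 5 H3 and 5 H4 genes. H2ac15 had 5, 2 and 9 counts in db/+ and 0 in each db/db library, which allows up to 0.0431 to 0.0472 CPM there in the gene table. The transcript tables gave it 60, 29 and 17 estimated counts in db/+ and 36, 19 and 15 in db/db, which overlap, so its zeros in the gene counts do not show absence. At this depth a difference in such genes was not detectable with confidence.

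The machinery that makes and destroys histone mRNA was measured beside its targets. Of 22 listed genes of histone pre-mRNA processing and transcription, 21 were tested and 0 were called in either model by limma, edgeR or DESeq2. At an unadjusted p under 0.05 limma gave 4 of the 21 in db/db, where 21.1% of all genes reached that level, and 2 in STZ-HFD, where 17.9% did. Slbp, the stem-loop binding protein, had mean levels of 3.40 CPM in db/+ and 4.67 in db/db, and 3.12 in Con+Veh and 2.7 in STZ-HFD. The highest CPM of the list, not scaled to length, were those of Srrt, a partner of the nuclear cap-binding complex, with 67.0 CPM on average, Pou2f1, the octamer-binding factor Oct-1, with 50.6, and the uridylyltransferases Tut4 and Tut7, which mark histone mRNA for decay, with 42.5 and 41.7. Pou2f1 had the lowest adjusted p of these in STZ-HFD (log2 fold change -0.62, adjusted p = 0.0811).

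Genes of S phase, in which histone mRNA is normally made, gave no call. Of 30 listed DNA replication genes 27 were tested, and 0 were called in either model by limma, edgeR or DESeq2. As above, edgeR called 0 of all genes in db/db. At an unadjusted p under 0.05 limma gave 3 of the 27 in db/db and 2 in STZ-HFD, smaller shares than over all genes. Pole, the catalytic subunit of a replicative DNA polymerase, averaged 16.4 CPM, the helicase subunit Mcm6 13.9 and the DNA ligase Lig1 13.7. Uhrf1, a factor of maintenance methylation, had mean levels of 79.7 CPM in Con+Veh and 30.4 in STZ-HFD, and its log2 fold change was -1.40 (adjusted p = 0.313). Of 17 mitosis genes 14 were tested. In db/db, 13 of the 14 had log2 fold changes below 0 (median -0.52), and 5 had an unadjusted p under 0.05 in limma, against 21.1% of all genes. The sums of 30.1 to 37.2 CPM lay below those of db/+ at 46.7 to 103 CPM. Taken singly, 11.7% of all genes lay apart and lower in db/db. 1 of the 14 was called, against 0.432% of all genes called lower. Mki67, a marker of cycling cells, fell in db/db by 1.47 on the log2 scale (adjusted p = 0.0284), from a mean of 40.1 to 13 CPM. DESeq2 also called it (adjusted p = 0.00929), and edgeR, which called 0 of all genes in db/db, did not (0.179). Leaving out db/+ replicate 1 or 3 or any 1 of the db/db libraries gave an adjusted p of 0.0541 to 0.0904. The call of Mki67 was also lost with voom without quality weights (adjusted p = 0.123) and with transcript totals (0.0654). Calls over all genes in db/db fell in these settings too, so the loss was not particular to Mki67. From 281 as reported they fell to between 37 and 143 without 1 of those libraries. With voom without weights 9 were left, and with transcript totals 144. In STZ-HFD against Con+Veh 0 of the 14 were called by any of the 3 tools, with 1 at an unadjusted p under 0.05 in limma, and Mki67 averaged 11.6 and 11.3 CPM.

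Replication-independent variants, which replace the canonical histones outside S phase, were all abundant enough for the test. H3f3b, which encodes H3.3, averaged 91.6 CPM, the macroH2A gene Macroh2a1 28.9, H2az1 19.5 and H2az2 15.8. Of the 9 listed variants 1 was called in db/db, against 1.23% of all genes called higher. H2az1, an H2A.Z gene, rose there from a mean of 13.4 to 33.0 CPM (log2 fold change 1.37, adjusted p = 0.0494). At an unadjusted p under 0.05 limma gave 5 of the 9 in db/db, where 21.1% of all genes reached that level. Direction was mixed, with log2 fold changes above 0 for 5 variants and below 0 for 4 (median 0.24). The summed levels of the 9 did not overlap (144 to 212 CPM in db/+ and 232 to 326 in db/db), while 14.1% of all single genes lay apart and higher. The call of H2az1 was lost with transcript totals, where its log2 fold change was 0.75 (adjusted p = 0.592), with voom without quality weights (0.214), filterByExpr (0.0507) and removal of GC trends (0.0619, or 0.0659 with length). It was also lost with edgeR (adjusted p = 0.312) and DESeq2 (0.133) and without any 1 of the 6 libraries of this model (0.0644 to 0.175), STZ-HFD replicate 1 (0.0557) or STZ-HFD replicate 4 (0.0565). Calls over all genes in db/db were fewer in each of these settings too. They ran from 0 with edgeR to 271 without STZ-HFD replicate 4, against 281 as reported. In STZ-HFD 0 of 9 were called by any of the 3 tools, with 0 at an unadjusted p under 0.05. Of 13 histone chaperones 0 were called in either model by any of the 3 tools, with 0 in db/db and 2 in STZ-HFD at an unadjusted p under 0.05 in limma. The highest CPM among them, not scaled to length, were those of Atrx with 122 CPM, Nap1l1 with 112, Nap1l4 with 33.8 and the FACT subunit Supt16 with 20.6. Among 7 other RNAs without a poly(A) tail 6 were in the table, and only the small nuclear RNA Rn7sk was abundant enough for the test (log2 fold change -0.53 in STZ-HFD, adjusted p = 0.547), while Rmrp and Rnu7 were listed at 0 in every library.

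Markers of other cell types moved with the groups. In STZ-HFD, 6 of 10 disc and cartilage markers were called lower, and the other 4 had log2 fold changes above 0. The summed level of the 10 ran from 4823 to 9676 CPM against 8146 to 18149 in Con+Veh. 3 of 9 skeletal muscle markers were called higher there, with sums of 7235 to 22324 against 7769 to 10988 CPM. Of the osteoblast markers 1 of 6 (Ibsp) was called lower and of the adipocyte markers 1 of 8 (Pck1) higher. The osteoblast markers were split in direction, with 4 below and 2 above 0. In db/db, 4 of 8 adipocyte markers were called higher, with sums of 299 to 561 against 181 to 382 CPM in db/+, and 1 of 9 muscle markers (Myh1) was called lower. All 9 muscle markers had log2 fold changes below 0 there, 8 of them at an unadjusted p under 0.05. The 6 osteoblast markers were below 0 as well (median -0.98), with sums of 9201 to 15154 CPM in db/db and 16494 to 18840 in db/+, and 9 of 10 disc and cartilage markers were below 0 (median -0.86); none of these was called. Over all genes, limma called 1.30% higher and 1.31% lower in STZ-HFD, and 1.23% higher and 0.432% lower in db/db. The calls of these lists depended on the tool. In STZ-HFD, edgeR called 1 and DESeq2 5 of the 10 disc markers, both called 0 of the 9 muscle and 0 of the 6 osteoblast markers, and they called 1 and 2 of the 8 adipocyte markers. In db/db, edgeR called 0 of them, as it called 0 of all 16915 genes, and DESeq2 called 4 adipocyte markers and 1 muscle marker. The part of these cells in the H4c3 and H2bc21 values was not tested.

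Markers of blood and marrow lineages were also summed. The erythroid markers summed to 25.9 to 98.7 CPM over all libraries, and the 10 neutrophil-lineage markers summed to 0.974 to 18.7 CPM. B cell markers were higher, with sums of 58.9 to 67.9 CPM in db/+ and 98.6 to 132 in db/db, and of 93.4 to 117 in Con+Veh and 65.4 to 90.3 in STZ-HFD, and the groups did not overlap in either model. None of the tested erythroid, neutrophil or B cell markers was called in either model, nor was any keratinocyte marker, by limma, edgeR or DESeq2. At an unadjusted p under 0.05 limma gave 1 erythroid and 1 B cell marker in db/db, and none in STZ-HFD.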

How the data were processed

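RNA of pooled caudal discs was sequenced from 14 mice (3 db/+, 3 db/db, 4 Con+Veh and 4 STZ-HFD), after random-primed amplification of total RNA. The authors deposited whole-number counts per gene (STAR alignment, featureCounts, GRCm38) and, per the file headers, estimated counts per transcript from Salmon, rounded here and summed per gene as an alternative. Multi-mapping and strand settings are not given in the sources used here. The 287 repeated lines of the gene table were identical and were used once.

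Counts were scaled by TMM in edgeR 4.0.16. Genes with CPM above 1 in at least 3 libraries (16915) were fitted in limma 3.58.1 with voomWithQualityWeights, 1 mean per group over all 14 libraries, after the study's methods, and p-values were Benjamini-Hochberg adjusted over all genes within each contrast. Alternatives used edgeR's quasi-likelihood test, DESeq2 1.42.0, other filters, scalings and subsets of libraries. The scripts were tested on simulated data. Replicates are separate mice.

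Annotation, exon lengths, 75-base sharing and stem-loops came from GENCODE M21 transcripts, and promoters from RefSeq. The histone stem-loop was searched by its consensus on the sense strand. Named were every called member, the 2 members per class with most CPM per kilobase, called genes of the other lists and up to 4 more of each. Members and lists were chosen with earlier results of these data known.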

Additional observations from a re-analysis of the deposited data

Results flagged for a closer look

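2 values stood far from the other libraries of their group by a gap test (Dixon) among 30 groups of 4 examined, where chance alone would give about 5%. Both came from Con+Veh replicate 2, whose library name carries a different suffix from the other controls. H1f2 was at 75.2 CPM there, against 35.7 to 38 CPM in the other 3 control libraries. H2bc4 was at 17.8 CPM, against 31.3 to 33.5 CPM in the others. Without that library and STZ-HFD replicate 1, left out together after the data were seen, H4c3 was still the only called histone gene in STZ-HFD (log2 fold change -1.43, adjusted p 0.0128). Calls over all genes in this contrast rose in that setting too, from 441 to 743 of 16178 genes.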

How the results depend on the processing

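The count of called histone genes was 0 in db/db against db/+ under 28 of 30 alternatives, and 1 with no filter on low counts (H2ac15) and 1 with transcript totals (Hist1h2an), both lower and both genes of few counts that share sequence. It ranged from 0 to 0 when each library was left out in turn, and the difference of the contrasts gave 0 under all 29. In STZ-HFD the count of 1 fell to 0 with edgeR, DESeq2, voom without weights, filterByExpr, no filter, each model fitted alone, GC trend removed (also with the replicate block or length), ribosomal RNA genes removed, transcript totals, and without both libraries whose names end in RIP; it ranged from 0 to 1 when single libraries were left out. Calls over all genes, 441 as reported, fell too, to 29 with edgeR, 19 with voom without weights, 56 with transcript totals and 272 with DESeq2. The labels' replicate numbers did not pair the samples (mean correlation of same-numbered deviations -0.091 in the db/db and -0.111 in the STZ-HFD model), and with a replicate block the call count was 0 in both models (38 calls over all genes in STZ-HFD), with an adjusted p of 0.172 for H4c3. Uncalled values near 0 changed sign. H1f0 in STZ-HFD became 0.077 with no filter, 0.020 with GC trend and replicate block, 0.014 with transcript totals and 0.038 without both RIP libraries, and ranged from -0.23 to 0.127 without single libraries. H2ac6 in db/db became -0.074 with the GC trend and -0.133 with GC and length removed, and -0.143 to 0.30 without single libraries. H2ac6 in STZ-HFD became -0.453 with transcript totals, and H2bc3 there 0.712 without weights and -0.883 to 0.771 without single libraries. H4c3 in db/db became -0.075 with the replicate block and -0.179 with transcript totals, and -0.214 to 0.474 without single libraries. Summed H2B in STZ-HFD, as a log2 ratio of group means, was -0.18 as reported and 0.058 per total counts. Low counts kept 48 of 68 members out of the test.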
